A study of Gossypium hirsutum with 2 samples.

Results

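Actin and tubulin are the building blocks of the plant cytoskeleton, and their genes were followed here in leaves of Upland cotton (Gossypium hirsutum), cultivar Acala 1517-99, under drought and under normal irrigation. The genes were taken by name: every Affymetrix probe set that the platform annotation assigns to a single cotton gene whose aliases include ACT, TubA or BTub followed by a number. The array's own actin controls were left out. This gave 13 of the 23977 plant probe sets, which represent 11 of the 520 genes that have a probe set of their own: 5 actin probe sets for 5 genes, 5 α-tubulin probe sets for 3 genes, and 3 β-tubulin probe sets for 3 genes. The RefSeq gene table holds 15 genes with such an alias, so 4 of them (ACT3/ACT13, ACT15, TubA3 and BTub7) had no probe set of their own.

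The drought group is leaves of field plants left without furrow irrigation, and its control is leaves of plants of the same cultivar in paired plots that received it. The leaf in the third position from the top was harvested 9 days after water was withheld, and the labels give the age of both groups as 9 weeks. The labels describe 3 field plots with 8 plants per replicate, but the material used here is 1 array per group, and whether it pools the plots is not stated. A single array per group leaves no replicate error to measure, so no test was run and no p-value is given. Every difference below describes these 2 arrays.

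Actin monomers assemble into filaments that carry organelles and vesicles through the cell and steer where new wall material is delivered. Dimers of α-tubulin and β-tubulin assemble into microtubules, which line the inside of the plasma membrane in growing plant cells and guide the laying down of cellulose. In cotton both families are best known from the elongating seed fibre, and in expression studies their genes often serve as references assumed to be steady.

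Levels are given as MAS5 signals, a linear scale on which Affymetrix software summarises the brightness of a probe set. Differences are log2 of the drought signal minus log2 of the well-watered signal, so a positive value means higher in drought leaves. Probe sets whose mean log2 signal was at least the median of all plant probe sets, equal to a signal of 72.3, are called measurable. Of the 13 actin and tubulin probe sets, 11 were measurable. The brightness of a probe set depends on its probes as well as on the transcript, so the signals of different genes give no order of transcript amounts.

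The arrays themselves differ in ways that touch these genes. The median plant signal was 78.3 on the drought array and 75.6 on the well-watered array. The hybridisation spike-in controls (bioB, bioC, bioD and cre) have 27 probe sets. Set against their median in place of the total signal, every difference is lower by 0.25 on the log2 scale. Several of the 27 read the same spike-in and no spread is given for them, so the size of this shift is uncertain. The array's actin controls, which read the 5-prime end, the middle and the 3-prime end of the transcript, did not move together. The G. hirsutum control at the 3-prime end measured 476 in drought and 605 in well-watered leaves (log2 difference -0.35), and the one in the middle 469 and 928 (-0.98). Its 5-prime probe set was dim, at 116 in drought against 42.8 in well-watered leaves (1.44), and neither signal exceeded the level that 95% of the 51 dim reporter controls stayed under (144 on the drought array, 75.7 on the well-watered array), called the reporter limit below. The G. raimondii control gave -0.97 in the middle, at 124 against 243, with -0.01 at the 3-prime end and -0.21 at the dim 5-prime end. Its middle signal in drought, 124, lay under the reporter limit too, so the -0.97 is imprecise. The 3-prime to 5-prime signal ratio of the G. hirsutum control was 4.09 in drought and 14.1 in well-watered leaves, and that of the G. raimondii control 3.60 and 3.13; the 5-prime signals under all 4 lay below the reporter limit, so these ratios are imprecise. The ratios of the other controls did not rank the arrays alike: for ubq11 they were 10.2 in drought and 5.80 in well-watered leaves on the G. hirsutum probe sets and 0.151 and 0.270 on those of G. raimondii, and for ss1 1.30 and 1.83, and 0.136 and 2.61. Such ratios can reflect RNA quality, but the brightness of the probes enters them too, and some of those for G. raimondii lay far below 1. Their part in the differences of actin and tubulin genes was not tested.

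**Figure D1:**
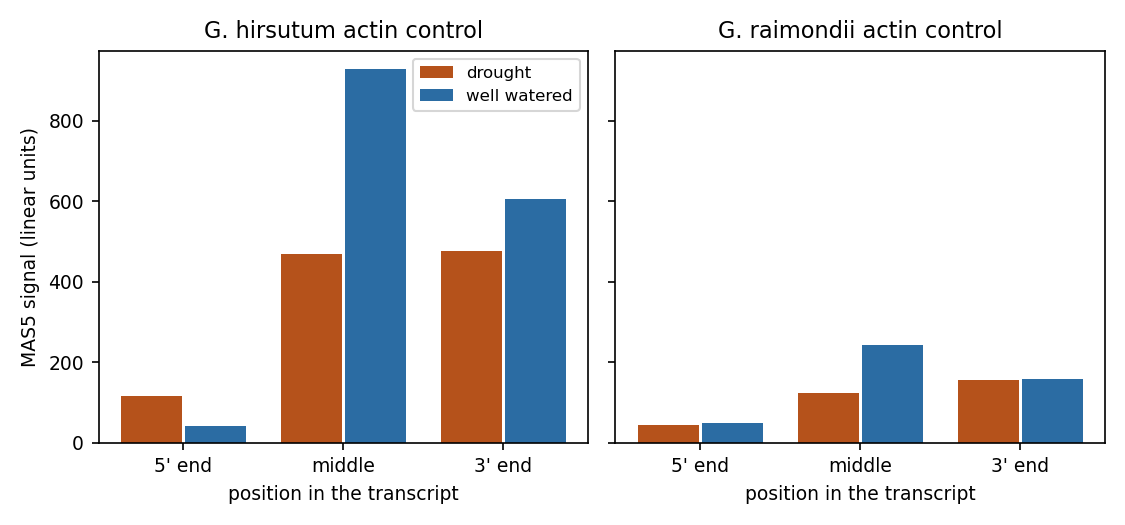
MAS5 signal (linear units) of the array's actin control probe sets at the 5-prime end, the middle and the 3-prime end of the transcript, for G. hirsutum (left) and G. raimondii (right), with drought bars left of well-watered bars and 1 array per group. The middle probe sets are lower in drought leaves for both species (469 against 928 and 124 against 243), while the G. hirsutum 5-prime probe set, dim on both arrays, is higher (116 against 42.8). The G. raimondii middle signal in drought, 124, lies under the reporter limit.

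Of the 11 measurable actin and tubulin probe sets, 0 differed by 2-fold or more, where 4.38% of all 11989 measurable plant probe sets did (1.82% higher and 2.56% lower in drought leaves). Higher in drought leaves were 7 and lower 4, against 49.6% higher and 50.4% lower over all measurable plant probe sets. Of the 7 higher, 3 are assigned to the same gene, TubA4. With only the brightest probe set of each gene, 5 were higher and 4 lower, with a median of 0.10. The median difference of the 11 was 0.14, beside -0.01 over all measurable plant probe sets, whose quartiles were -0.26 and 0.24. At 1.5-fold, 2 of the 11 differed, where 16.4% of all measurable probe sets did: 1 was higher (TubA4, on its dimmest probe set, with both signals near the reporter controls) beside 7.32% of all, and 1 lower (BTub3) beside 9.06%. A group of 11 is small, and its count of 0 lies near that background share. Against the spike-ins the balance turned, with 2 higher and 9 lower, and the share of all measurable plant probe sets that were higher was then 24.2%. The distance between the highest and the lowest of the 11 was 1.32 as deposited, which median and spike-in centring cannot change, 1.25 under quantile normalization, 1.24 under lowess centring and 1.12 with the pseudocount.

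**Figure D2:**
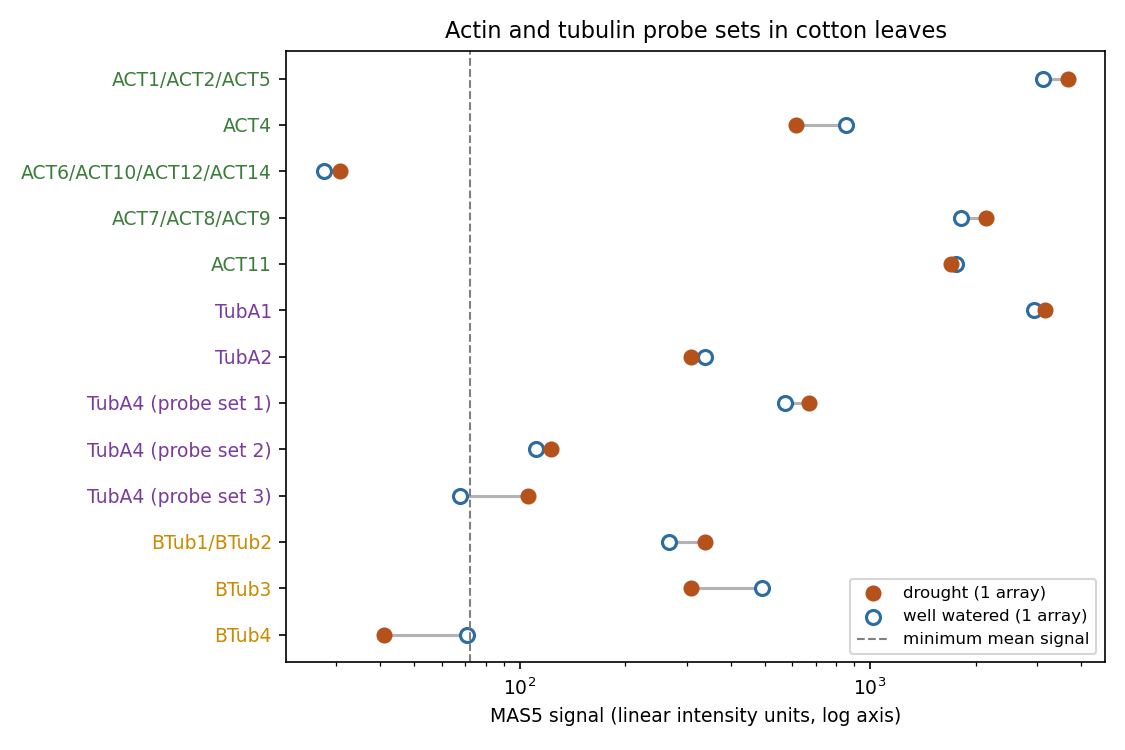
MAS5 signal of the 13 actin (green names), α-tubulin (purple) and β-tubulin (ochre) probe sets on a log axis, with filled circles for drought and open circles for well-watered leaves, 1 array each; the dashed line marks the minimum mean signal of 72.3. BTub3, BTub4 and ACT4 stand apart with drought well to the left of well watered, and the dimmest TubA4 probe set with drought to the right.

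Among the measurable actins, ACT4 stood lower in drought leaves, ACT11 was nearly level and the others were slightly higher. ACT4 (LOC107890338) measured 615 in drought leaves and 855 in well-watered leaves, a log2 difference of -0.48. ACT11 (LOC107913713) measured 1705 in drought and 1755 in well-watered leaves (-0.04). Both genes are read by probe sets of the same transcript cluster, Ghi.4376. These probe sets may share probes with other transcripts (their IDs end in _x_at and _a_at), so they are not taken as independent readings. The change of ACT4 minus that of ACT11 was -0.43 as deposited, which median and spike-in centring cannot change. Over all scalings it lay between -0.43 and -0.39.

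The gene listed as ACT1, ACT2 and ACT5 (LOC107911661), of which ACT1 is known from work on fibre elongation, had the brightest actin probe set, with 3659 in drought and 3114 in well-watered leaves (0.23). The gene listed as ACT7, ACT8 and ACT9 (LOC107959435) measured 2139.5 in drought and 1818 in well-watered leaves (0.24). Both were higher in drought leaves by about the same amount as deposited, and both lay just below 0 against the spike-ins (-0.01 each). The change of ACT4 minus that of either was -0.71 as deposited, which median and spike-in centring cannot change. Over all scalings it lay between -0.71 and -0.64. A change as large as that of ACT4 in either direction was found in 9.48% of measurable plant probe sets of the brightest of 3 equal signal classes, and one as large as that of ACT11 in 86.5%.

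The fifth actin gene, listed as ACT6, ACT10, ACT12 and ACT14 (LOC107911663), was not measurable. Its probe set read 30.8 in drought and 27.6 in well-watered leaves (0.16), under the reporter limit on both arrays. In the gene table it stands in a row with ACT1/ACT2/ACT5 and ACT3/ACT13, with 0 other genes between neighbours. ACT7/ACT8/ACT9 is likewise the direct neighbour of ACT15. The row of 3 actin genes thus held the brightest actin probe set and the dimmest, and its middle gene had none. The ACT6/ACT10/ACT12/ACT14 probe set is the only one of the 13 whose ID carries no mark of shared probes.

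The α-tubulins were higher in drought leaves on 4 of 5 probe sets as deposited, by small amounts apart from a dim one, and against the spike-ins the dim one alone stayed above 0. Of these 4, 3 are assigned to the same gene, TubA4, and the other to TubA1. Over all measurable plant probe sets, 49.6% were higher as deposited. TubA1 (LOC107886968), the brightest tubulin probe set, measured 3153 in drought and 2939.7 in well-watered leaves, a log2 difference of 0.10, or -0.15 against the spike-ins. TubA2 (LOC107898755) was lower on either scale, with 307.5 in drought and 339 in well-watered leaves (-0.14, or -0.39 against the spike-ins). The change of TubA2 minus that of TubA1 was -0.24 as deposited and -0.13 under quantile normalization. Differences as large as that of TubA1 were found in 69.0% of the brightest class of measurable probe sets, and as large as that of TubA2 in 69.8% of the middle class.

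TubA4 (LOC107905189, also listed as TUA10) is the only gene here with several probe sets, and all 3 were higher in drought leaves as deposited. The brightest, Ghi.1314.1.S1_x_at, measured 671 in drought and 570.3 in well-watered leaves (0.23). Ghi.1314.3.A1_x_at measured 106 in drought and 67.8 in well-watered leaves (0.64), and Ghi.4648.3.A1_x_at 123 and 112 (0.14). Against the spike-ins only Ghi.1314.3.A1_x_at of these 3 stayed above 0, at 0.40, while the others gave -0.01 and -0.11. The drought signals of the dimmer pair lay under the reporter limit of 144, and the well-watered signal of Ghi.1314.3.A1_x_at, 67.8, lay under that of its array too (75.7), so its difference of 0.64 is imprecise. Their IDs carry the orientation letter A and that of the brightest the letter S, so the strand read may differ. The 3 differences of this 1 gene had an SD of 0.27, which measures disagreement between probe sets and not between plants.

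The transcript clusters behind TubA4 gave further values. Cluster Ghi.1314 holds 2 more probe sets with no gene in the annotation, and both were higher in drought leaves. Ghi.1314.2.S1_s_at measured 1494 in drought and 1071 in well-watered leaves (0.48), and Ghi.1314.4.A1_at measured 197 and 139 (0.50). All 4 probe sets of that cluster were thus higher as deposited, by 0.23 to 0.64, and 3 of the 4 also against the spike-ins (0.23, 0.25 and 0.40). Over all measurable plant probe sets, 49.6% were higher as deposited and 24.2% against the spike-ins. The 4 share a cluster number, so they are not taken as independent readings. Cluster Ghi.4648 goes against the name: its brightest probe set, Ghi.4648.1.S1_x_at, is assigned to a lipid transfer protein gene (LOC107896815, LTP3 among its aliases). That probe set measured 8264 in drought and 7562 in well-watered leaves (0.13), and the TubA4 probe set of the cluster gave 0.14. Under lowess centring they gave 0.03 and 0.14. Both differences as deposited lie between the quartiles of all measurable plant probe sets, so their closeness says nothing about the name. The remaining probe set of the cluster, Ghi.4648.2.A1_s_at, was under the measurable minimum and gave 1.19. Without Ghi.4648.3.A1_x_at, 6 of 10 measurable actin and tubulin probe sets were higher, with a median of 0.17.

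**Figure D3:**
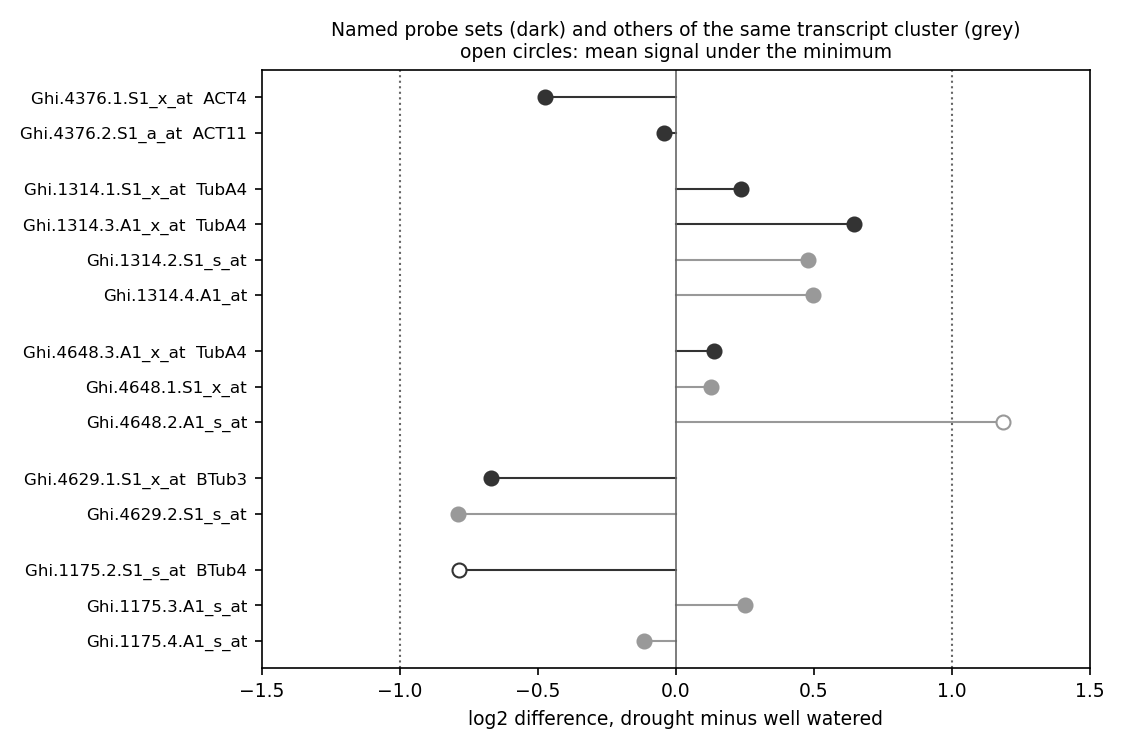
Log2 difference (drought minus well watered, 1 array each) of actin and tubulin probe sets (dark) and of the other probe sets with the same transcript cluster number (grey), with open circles where the mean signal was under the minimum; dotted lines mark 2-fold. All 4 probe sets of cluster Ghi.1314 are above 0, both of Ghi.4629 are below 0 at -0.67 and -0.79, and those of Ghi.1175 lie on both sides.

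The β-tubulins held the largest differences and split in direction. BTub3 (LOC107925867) measured 308.0 in drought and 490.4 in well-watered leaves, a log2 difference of -0.67, the lowest of the 11 measurable probe sets. BTub1/BTub2 (LOC107962977) measured 338 in drought and 267 in well-watered leaves (0.34), and it stayed above 0 against the spike-ins at 0.10. Drought leaves thus had the higher signal for BTub1/BTub2 and the lower one for BTub3. A difference as large as that of BTub1/BTub2 was common, found in 36.5% of the middle class of measurable plant probe sets. The change of BTub3 minus that of BTub1/BTub2 was -1.01 on the log2 scale as deposited, which median and spike-in centring cannot change. Over all scalings it lay between -1.02 and -0.94. The pair was chosen after its values were seen.

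The low value of BTub3 had a counterpart in a second probe set of its cluster. Ghi.4629.2.S1_s_at, with no gene in the annotation, measured 113 in drought and 195 in well-watered leaves (-0.79), and both IDs mark the same orientation. Its drought signal lay under the reporter limit, so the size of its deficit is imprecise. Neither probe set reached 2-fold as deposited; against the spike-ins they gave -0.92 and -1.04. A difference as large as that of BTub3 was found in 9.41% of the middle class of measurable plant probe sets. The 2 probe sets may share probes with other tubulin copies (their IDs end in _x_at and _s_at), so they are not independent readings.

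BTub4 (LOC107936697) was not measurable, with 41.0 in drought and 70.7 in well-watered leaves (-0.79, or -0.53 with a pseudocount and -1.03 against the spike-ins). Both signals lay under the reporter limit. The other probe sets of its cluster, Ghi.1175, were brighter, of the opposite orientation and not lower to that extent. Ghi.1175.3.A1_s_at measured 229 in drought and 193 in well-watered leaves (0.25), and Ghi.1175.4.A1_s_at, assigned to LOC107957987, measured 666 and 720.2 (-0.11). The deficit of BTub4 thus rests on its dim probe set alone. The other probe sets of the cluster are not assigned to BTub4, so they give no further reading of it.

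**Figure D4:**
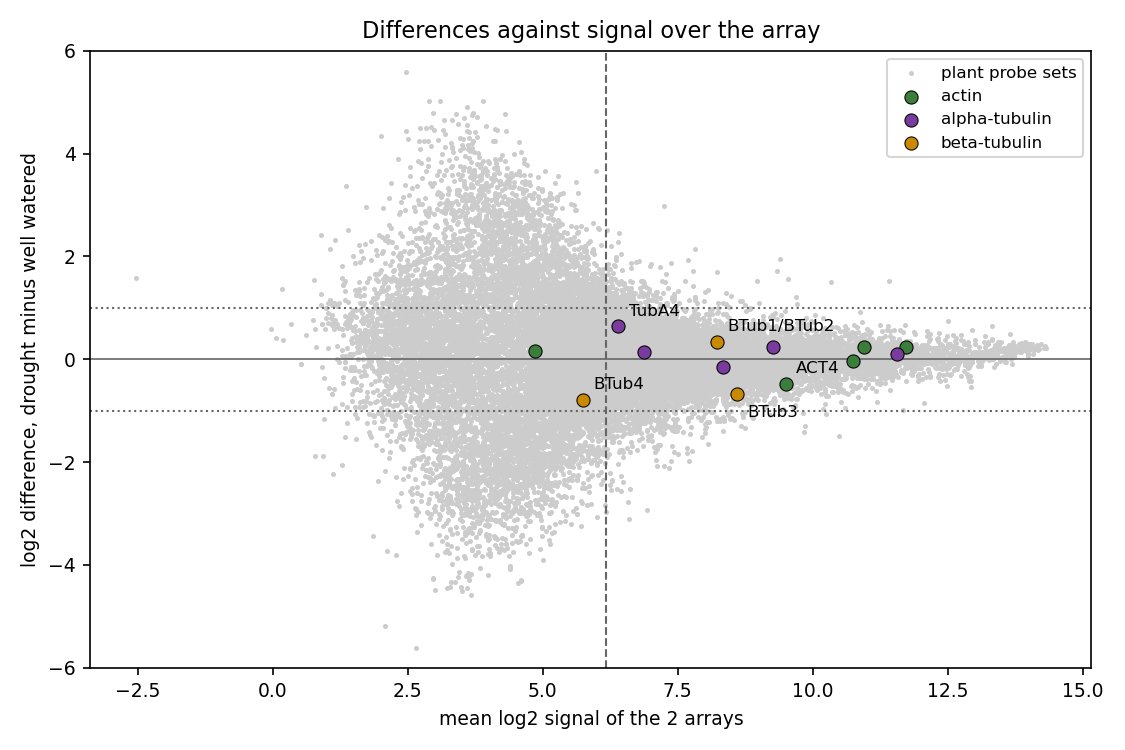
Log2 difference (drought minus well watered) against the mean log2 signal of the 2 arrays for all 23977 plant probe sets (grey) and the actin and tubulin probe sets (coloured); dotted lines mark 2-fold and the dashed line the minimum mean signal. None of the coloured points passes 2-fold, and BTub3 and ACT4 lie in the lower part of the grey cloud at their signal.

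Spike-in centring lowers all 13 probe sets alike, so it turned the 6 whose differences lay between 0.10 and 0.24 as deposited and could not turn the 5 already below 0 (ACT4, ACT11, TubA2, BTub3 and BTub4). TubA4 on Ghi.1314.3.A1_x_at (0.40) and BTub1/BTub2 (0.10) stayed above 0. Median centring, quantile normalization, intensity-dependent centring and the pseudocount turned 0 of the 13.

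**Figure D5:**
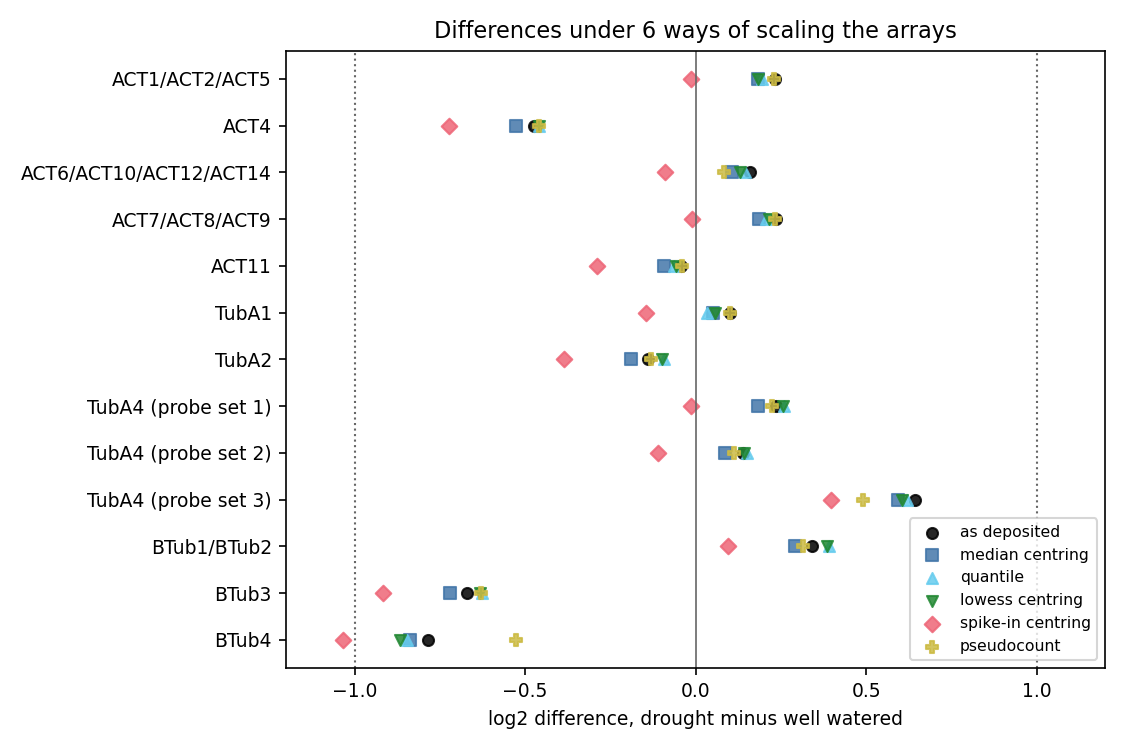
Log2 difference (drought minus well watered) of each of the 13 probe sets under 6 ways of scaling the arrays, 1 marker shape per scaling; dotted lines mark 2-fold. Spike-in centring (diamonds) lies 0.25 to the left of the values as deposited, and moves 6 probe sets across 0.

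Proteins that bind or steer the cytoskeleton were sparsely represented by name. A list of actin-binding proteins, microtubule-binding proteins and motors, and Rac/ROP GTPases matched 7 probe sets, of which 3 were measurable, 0 of those 3 passed 2-fold and all 3 were lower in drought leaves (median -0.17). Over all measurable plant probe sets 4.38% passed 2-fold and 50.4% were lower. Against the spike-ins the 3 were lower still, at -0.33, -0.50 and -0.42, on a scale where 24.2% of all measurable plant probe sets were higher. CAP (LOC107894227), a cyclase-associated protein that binds actin monomers, measured 726 in drought and 770.0 in well-watered leaves (-0.09). KTN1 (LOC107891685), the microtubule-severing katanin, measured 70.4 in drought and 83.7 in well-watered leaves (-0.25). Its drought signal lay under the reporter limit of 144, so this difference is imprecise. The small GTPase gene listed as Rac2, Rac6 and RacA (LOC107939787) measured 436 in drought and 490.3 in well-watered leaves (-0.17). These differences lie between the quartiles of all measurable plant probe sets.

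The 4 dimmer matches went both ways. The kinesin genes KCH1 (14.3 in drought against 32.1 in well-watered leaves) and kch2 (62.0 against 28.3) differed by -1.17 and 1.13. Among the Rac GTPases, Rac9 measured 83.8 in drought and 50.2 in well-watered leaves (0.74) and Rac13 4.3 and 21.3 (-2.31). All 4 were under the measurable minimum, and 3004 higher and 2838 lower probe sets passed 2-fold when no minimum was set, against 218 and 307 with it.

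The authors' deposited table of 110 differentially expressed probe sets lists 0 of the 13 actin and tubulin probe sets, 0 of the other probe sets of their clusters and 0 of the 7 matches for cytoskeleton-binding proteins. That table holds 0.459% of all plant probe sets, so a count of 0 in groups this small says nothing about these genes. Its rule of choice is not stated.

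Levels of cell type markers were read from lists fixed beforehand. Too few were matched to check the leaf label, and they were not used to name cells. Of 5 mesophyll markers only RCA1, the rubisco activase gene, was matched, at 20148 in drought and 16617 in well-watered leaves (0.28). Of 10 trichome and fibre markers 4 were matched, with summed signals of 642 in drought and 687 in well-watered leaves. Of the 3 measurable ones, the fibre protein gene E6 (92.3 against 216, log2 difference -1.23) and the homeodomain gene HOX3 (66.8 against 104, -0.64) were lower. Both drought signals lay under the reporter limit of 144, so the sizes of these differences are imprecise. E6 passed 2-fold, as 2.56% of all measurable plant probe sets did in that direction. The trichome regulator GHTTG1, which makes up most of the sum, was higher (447 against 341). The remaining match, EXPA1, was under the measurable minimum and was also higher (36.7 against 25.6, 0.52). Of 8 vascular markers Sus1, a sucrose synthase gene, was matched, at 255 in drought and 345 in well-watered leaves (-0.44). The guard cell and dividing cell lists matched 0 probe sets by alias. Cotton fibres and trichomes are rich in actin and tubulin transcripts, and the part of trichome or vascular content in the differences was not tested; in whole leaves, fewer cells of a type and less RNA per cell cannot be told apart.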

How the data were processed

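Leaf RNA of 1 drought and 1 well-watered sample was hybridised to the cotton array. The value table holds deposited intensity values on a linear scale, computed by MAS5 in GCOS per the submitters' processing notes, with versions not given in the sources used here. Whether plots were pooled is not stated. The authors' list also gives a deposited detection p-value per probe set and array, which was not used. Groups came from the sample titles. Differences are log2(drought) minus log2(well watered), with no pseudocount in the main setting. Control probe sets (103 spike-in or internal and 52 reporters) were left out of the 23977 plant probe sets. The reporter limit left out the brightest reporter.

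Gene names came from the platform annotation (1 gene for 697 probe sets, several for 46, none for 23234), joined by gene identifier to the RefSeq table of Gossypium_hirsutum_v2.1, in which all 697 were found. Its coordinates were used only for which genes neighbour each other. Probe sets ending in _x_at (7 of the 13), _s_at (4) and _a_at (1) share probes with other transcripts, so a name can stand for several copies.

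All 13 probe sets that the rule took are named; of other cytoskeleton genes, the measurable ones by design, and the dim ones, the cluster-sharing probe sets and the contrasts between isoforms after their values were seen. The members and lists were chosen with earlier results of these data known. No test was run, since 1 array per group leaves no replicate error and precision is limited by that number. Alternatives were median centring, quantile normalization, lowess centring (span 0.3), spike-in centring, a pseudocount of 26.4, other filters and folds of 1.5 and 3. The brightest measurable probe set of each gene was also taken alone. Scripts were tested on simulated data and run with Python 3.11.15, pandas 2.3.3, numpy 2.4.6 and statsmodels 0.14.6.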

Additional observations from a re-analysis of the deposited data

How the results depend on the processing

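Spike-in centring, which lowers every probe set alike, turned 6 of the 13 differences, to -0.01 for ACT1/ACT2/ACT5 (-0.0139), ACT7/ACT8/ACT9 (-0.0117) and the brightest TubA4 probe set (-0.0122), -0.0887 for ACT6/ACT10/ACT12/ACT14, -0.15 for TubA1 and -0.11 for TubA4 on Ghi.4648.3.A1_x_at. This follows from the median of the spike-in controls, which lay at 0.25. No member reached 2-fold under any scaling or filter in which it was measurable; at 1.5-fold 2 did. Counts of measurable members higher and lower were 7 and 4, and became 2 and 9 with spike-in centring and 0 and 1 without probe sets ending in _x_at or _s_at, where ACT11 alone remained. With 1 probe set per gene the counts were 5 and 4.

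Over all plant probe sets, 218 higher and 307 lower passed 2-fold. These became 102 and 628 with spike-in centring, 110 and 178 with the pseudocount, 3004 and 2838 with no filter, 24 and 43 with the filter at the 75th percentile, 79 and 127 with a filter on both arrays, and 106 and 129 without probe sets ending in _x_at or _s_at. A filter above the reporter controls, chosen after seeing the data, gave 79 and 47. Thresholds of 1.5-fold and 3-fold gave 878 and 1086, and 31 and 51. Leaving out a replicate was not possible with 1 array per group. No paired analysis was possible because each group has 1 array. Signals near the reporter controls limit BTub4, ACT6/ACT10/ACT12/ACT14 and the dimmer TubA4 probe sets. The members' own values are not in the authors' list, so its signals gave no alternative.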

Other observations

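KIS13A1 (LOC107888930), a kinesin gene outside the list of cytoskeleton-binding proteins that was picked from the aliases after some values had been seen, measured 444 in drought and 542 in well-watered leaves, a log2 difference of -0.29. It was lower in drought leaves under all 6 scalings. In cluster Ghi.4648, the probe set Ghi.4648.2.A1_s_at (LOC107896372) measured 72.6 in drought and 31.9 in well-watered leaves (1.19). It was under the measurable minimum and under the reporter limits of 144 and 75.7.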
